A study of Mus musculus with 6 samples.

Results

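The genes described here are named genes that had few reads in WT activated B cells and clearly more in hnRNPL-deficient ones. They were selected on the measured values themselves. A gene was taken when its mean over the 3 WT libraries was under 20 normalized counts, its lowest value in the 3 hnRNPL-deficient libraries was at least 30 and the ratio of the group means was at least 3. Predicted genes (Gm followed by digits, or names ending in Rik), names ending in os, immunoglobulin, histone, Slc and TNF superfamily genes, *Trp53cor1* and *Tnip3* were left out by name. Of 55421 genes in the table, 100 met the thresholds and 54 remained after the names were removed. Because these same values chose the genes, the differences between the groups below are a description and carry no test.

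Splenic B cells were activated in culture for 24 h with LPS (5 μg/ml), which engages Toll-like receptor 4, and the cytokine IL-4 (5 ng/ml). The WT group consisted of 3 Rosa mT/mG CD21-cre mice and the hnRNPL-deficient group of 3 Rosa mT/mG CD21-cre mice with the floxed allele *Hnrnpl* F/F. Both groups thus carried the recombinase and the reporter. The mice were C57BL6/J animals of both sexes, older than 6 weeks. CD21-cre is active mostly in mature B cells, and the mT/mG reporter turns cells GFP+ once the recombinase has acted, so GFP+ cells were sorted and each mouse gave 1 RNA-seq library. The 6 libraries are written WT1 to WT3 and KO1 to KO3. Values are reads per gene divided by a size factor for each library, called normalized counts here.

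hnRNPL is a nuclear RNA-binding protein that recognises CA-rich RNA and regulates alternative splicing. Genes of other lineages are usually kept at very low levels in a B cell, through the absence of their activators and through repressive chromatin such as Polycomb marks or methylated DNA. Counts per gene, as used here, measure the RNA of a gene without showing which of its transcripts was made.

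The libraries held between 40395186 and 75180749 reads on genes, and between 24009 and 26283 genes were detected in each. The targeted gene, *Hnrnpl* (chromosome 7, 28808541 to 28822266 in GRCm38), had normalized counts of 24371, 25579.7 and 24174 in WT mice and of 2178, 1519 and 1297 in hnRNPL-deficient mice, 6.74% of the WT mean. Of 12 B cell markers, all 12 were tested. Only *Cr2*, which encodes CD21, was called, rising from 4015 to 7299 (log2 difference 0.85, SE 0.225, adjusted p = 0.0444 from limma). The call of *Cr2* was lost without WT2, WT3 or KO3. The summed B cell markers ranged from 592506 to 724647 in WT and from 575861 to 658375 in hnRNPL-deficient libraries. *Xist*, the RNA of the inactive X chromosome, was above 1000 normalized counts in 1 library of each group (WT3 and KO2) and below 10 in the other 4. The ratio of hnRNPL-deficient to WT for the 54 genes had a median of 5.81 between the *Xist*-positive libraries and 5.59 among the others, and it was at least 1.5 for all 54 in both. These same values chose the genes, so high ratios in both were built in and nothing is read from this split. The *Xist*-positive ratio also sets 1 library against 1.

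The 54 genes were low in WT but not silent. Their WT means ran from 3.23 to 19.8 normalized counts, with a median of 10.9. Only *Iqch* was at 0 in a WT library, and in that library alone. All WT libraries together held between 11 and 70 reads per gene (median 37.5), so a WT level rests on few reads, while the hnRNPL-deficient libraries held between 91 and 1092 (median 167). After loss of hnRNPL the means ran from 31.9 to 385 normalized counts, with a median of 57.7, and 12 genes reached 100. The ratio of the means lay between 3.11 and 42.3 (median 5.66). A ratio of at least 10 was reached by 15 of the 54, and 23 had a ratio under 5. On the log2(normalized count + 1) scale the median difference was 2.47, against -0.03 over all 17640 tested genes, which were those averaging 10 or more normalized counts.

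**Figure D1:**
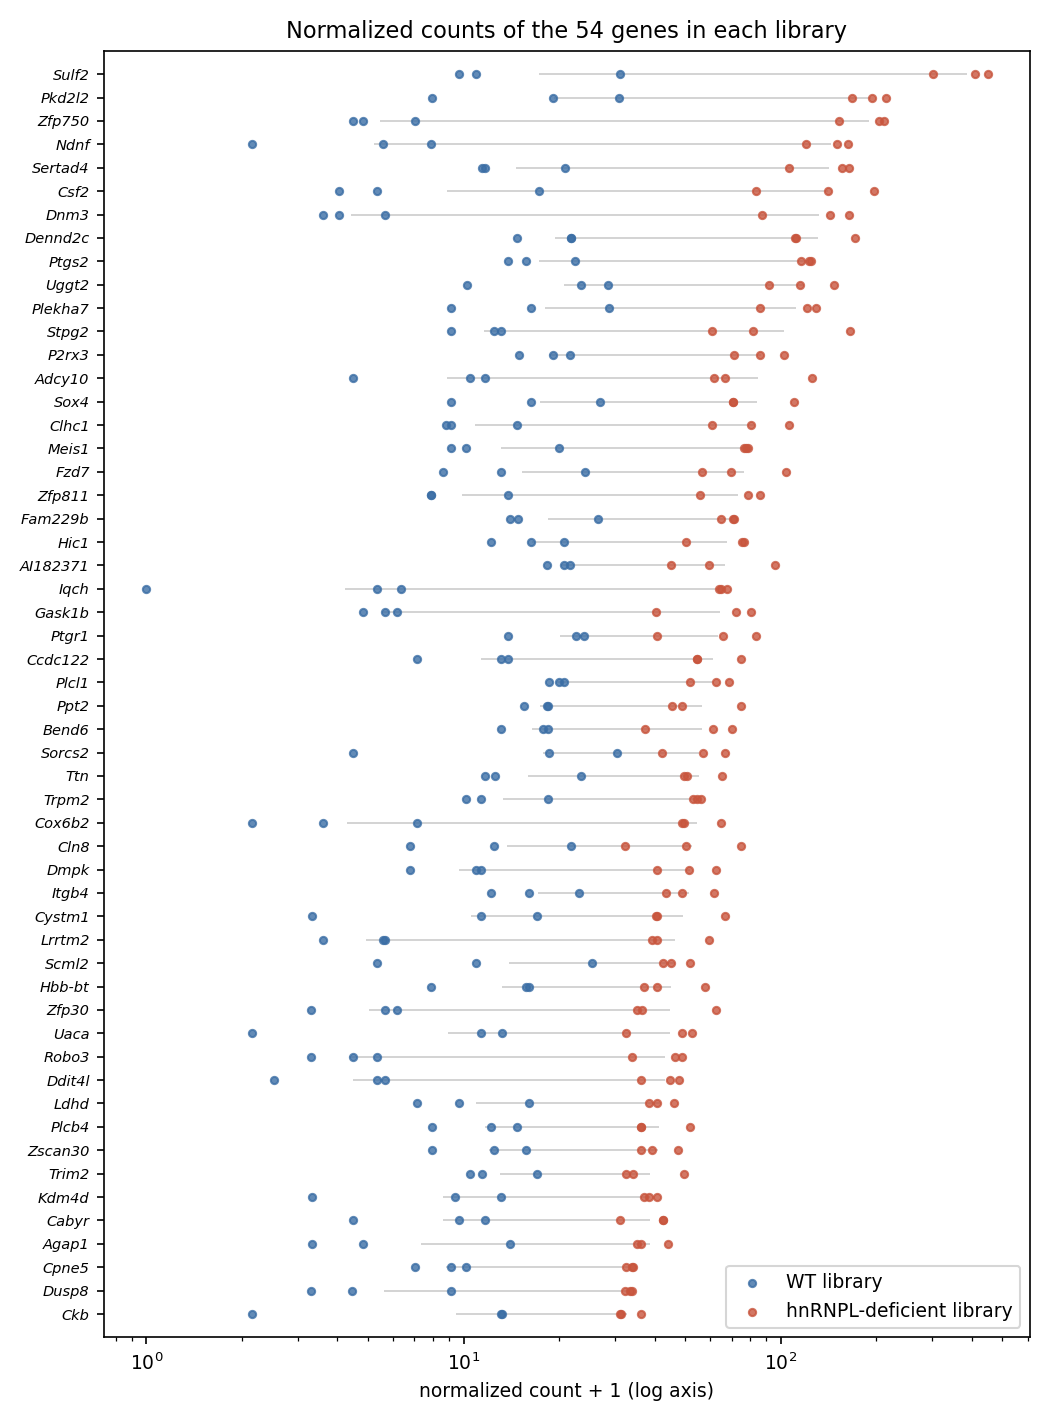
Normalized count + 1 of each of the 54 genes in each library, on a log axis, with genes ordered by their hnRNPL-deficient mean. Each point is 1 library, blue for WT and red for hnRNPL-deficient, and the grey line joins the group means. The red points lie to the right of the blue points for every gene, and *Sulf2*, *Pkd2l2* and *Zfp750* have the highest hnRNPL-deficient means.

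All 54 genes passed the filter on low values and all were called higher in limma (a fold of 1.5 or more with an adjusted p below 0.1), a call made for 7.28% of tested genes. Every hnRNPL-deficient value lay above every WT value for all 54, which was so for 17.7% of tested genes. The selection used these same values, so nothing is read from these counts. Of the hnRNPL-deficient libraries, KO1 was the highest for 26 genes, KO2 for 10 and KO3 for 18. Within the hnRNPL-deficient group the highest library was a median of about 1.5 times the lowest, from 1.03 times in *Meis1* to 2.76 times in *Stpg2*.

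Even in hnRNPL-deficient cells these genes stayed far below a typical expressed gene. Per kb of exon their hnRNPL-deficient level had a median of 12.4 normalized counts, against 199.5 over all tested genes. The range ran from 0.464 in *Ttn*, whose exons are by far the longest, to 174 in *Csf2*. The genes had a median of 5099 exon bases (3069 over tested genes) and a median span of 34666 bases on the genome (11549 over tested genes). The 2 sets differ in gene type, since predicted genes were left out by name. All but *Zscan30* are annotated as protein coding, against 65.6% of tested genes. Whether the genes are long for protein-coding genes was not tested. The thresholds were set on reads per gene, which are not corrected for length.

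**Figure D2:**
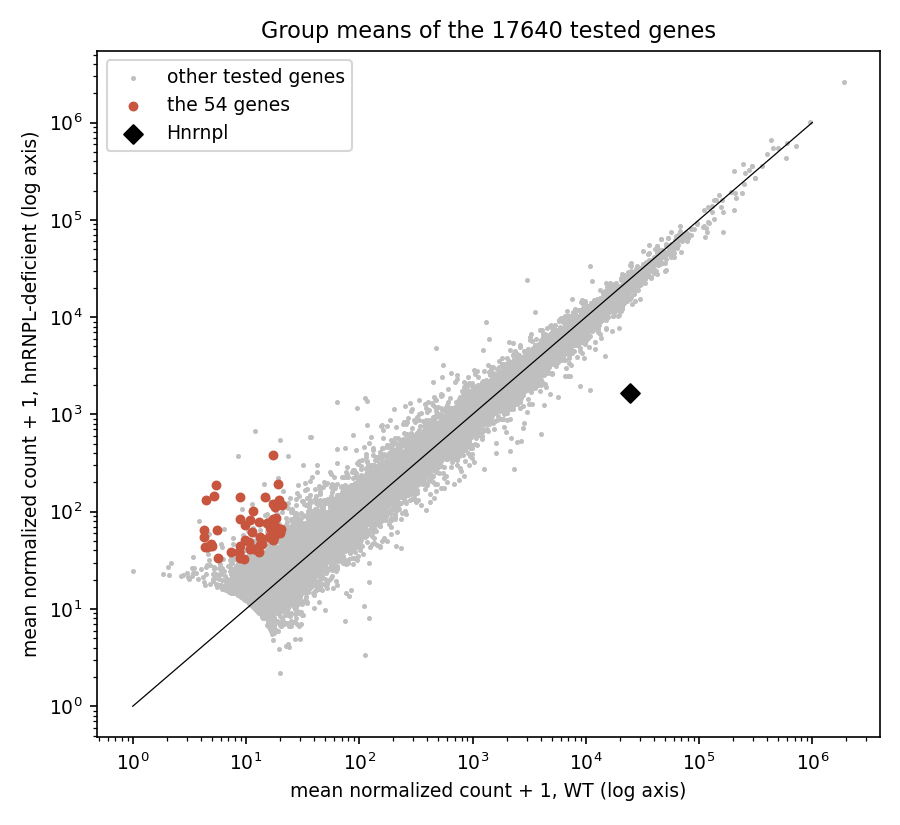
Mean normalized count + 1 in hnRNPL-deficient cells (vertical, log axis) against WT (horizontal, log axis) for the 17640 tested genes, each point 1 gene, with the 54 genes in red, *Hnrnpl* as a black diamond and the line of equal means. The 54 genes form a group at the lower left, with WT means from 3.23 to 19.8 and hnRNPL-deficient means from 31.9 to 385, and *Hnrnpl* lies below the line.

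Genes on either side of each threshold had similar values. By WT mean, *Uggt2* (19.8) and *AI182371* (19.2) were just inside. *AI182371* had 19.7, 17.3 and 20.6 normalized counts in WT and 44.2, 58.6 and 94.6 in hnRNPL-deficient libraries. Just outside were *Thrb*, with 20.9, 19.9 and 19.9 in WT and 122, 111 and 114 in hnRNPL-deficient, and *Eng*, with 12.8, 25.9 and 28.3 in WT and 126, 136 and 104 in hnRNPL-deficient. Both had more than a 5-fold ratio of means (5.71 and 5.47), above the ratio of many genes inside. By the lowest hnRNPL-deficient value, *Ckb* and *Cabyr* (30.2 each) were inside, and *Ptpn5* (8.12, 3.46 and 3.82 in WT and 29.8, 47.5 and 50.7 in hnRNPL-deficient) and *Gprasp2* (4.64, 13.8 and 13 in WT and 35.2, 33.3 and 28.8 in hnRNPL-deficient) were outside. The sperm protein gene *Cabyr* had 3.48, 8.65 and 10.7 in WT and 41.5, 41.4 and 30.2 in hnRNPL-deficient libraries. By the ratio, *Itgb4* (3.11) and *Trim2* (3.15) were inside. *Kif5c* (23.2, 18.2 and 15.3 in WT and 69.4, 52.5 and 43.9 in hnRNPL-deficient, ratio 2.93) and *Nacc2* (5.8, 24.2 and 18.4 in WT and 52.3, 48.5 and 39.7 in hnRNPL-deficient, ratio 2.90) were outside.

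Among secreted and matrix-acting proteins, *Sulf2* had the highest hnRNPL-deficient level of all 54. It encodes an extracellular sulfatase that removes 6-O-sulfate from heparan sulfate, and it lies on chromosome 2, 166073089 to 166155663. It had 30.2, 8.65 and 9.94 normalized counts in WT and 448, 299.9 and 408 in hnRNPL-deficient libraries, or 16.3 ± 12.1 in WT and 385 ± 76.7 in hnRNPL-deficient cells. These are means and SD over 3 mice. WT1 stood above the other WT libraries, and all of them lay far below the hnRNPL-deficient range. *Ndnf* (chromosome 6, 65671590 to 65712326) encodes a secreted neurotrophic factor, and it had 1.16, 6.92 and 4.59 in WT and 149.7, 119 and 162 in hnRNPL-deficient libraries. The ratio of its means was 34. *Csf2* (chromosome 11, 54247271 to 54249667) encodes GM-CSF, a cytokine that acts on myeloid cells, and it had 16.2, 4.32 and 3.06 in WT and 139.7, 82.8 and 196 in hnRNPL-deficient libraries. The hnRNPL-deficient libraries differed among themselves by more than 2-fold here, more than for most of the 54, but stayed clear of the WT range. Of the 8 other tested genes of the GM-CSF, IL-3 and IL-5 cytokines and their receptors, 0 were called in either direction by limma, edgeR or DESeq2, and 1 had an unadjusted p under 0.05 in limma. *Gask1b*, a Golgi-associated kinase gene, had 4.64, 5.19 and 3.82 in WT and 71.2, 39.4 and 79.5 in hnRNPL-deficient libraries.

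Channels and surface receptors formed another group. *Pkd2l2* (chromosome 18, 34408489 to 34444116), of the polycystin family of cation channels, had 6.96, 18.2 and 29.8 normalized counts in WT and 214, 167 and 193 in hnRNPL-deficient libraries. The WT libraries spread widely, but the hnRNPL-deficient ones were within 1.5 times of each other. *P2rx3*, an ATP-gated channel best known from sensory neurons, had 13.9, 18.2 and 20.6 in WT and 70.3, 84.8 and 101 in hnRNPL-deficient libraries. Among the 2 other tested P2X receptors, *P2rx7* rose from 26.4 to 91.6 (log2 difference 1.77, SE 0.277, adjusted p = 0.00634 from limma). *Fzd7*, a Frizzled receptor for Wnt ligands, had 23.2, 12.1 and 7.65 in WT and 103, 55.5 and 68.5 in hnRNPL-deficient libraries. Of the 9 other tested Frizzled and Wnt coreceptor genes 2 were called higher and 0 lower. These were *Lrp5* (from 107 to 221, log2 difference 1.03, SE 0.252, adjusted p = 0.0346 from limma) and *Lef1* (from 2098 to 3558, log2 difference 0.79, SE 0.176, adjusted p = 0.0248 from limma). *Lrp5* lost its call without WT2, WT3 or KO1. Of these 9 genes, edgeR called 2 higher and 0 lower, and DESeq2 called 2 higher and 1 lower. *Itgb4*, the integrin chain of hemidesmosomes, had 15.1, 11.2 and 22.2 in WT and 47.8, 60.6 and 42.5 in hnRNPL-deficient libraries. Of 14 other tested integrin and hemidesmosome genes 5 were called higher and 0 lower, against 7.28% and 4.08% of all tested genes. Among the 5 were *Itgb5* (from 34.2 to 94.6), *Itgb3* (from 495 to 1192) and *Itga3* (from 31 to 65.4). *Itga3* was not called without WT1, WT3, KO1 or KO2. Of the 14, edgeR and DESeq2, both run without KO2, each called 3 higher and 0 lower.

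The group held 6 more surface and junction proteins. *Trpm2*, a calcium channel opened by ADP-ribose, had group means of 12.3 in WT and 53.5 in hnRNPL-deficient cells. *Robo3*, of the axon guidance receptors, had means of 3.37 and 42, and *Sorcs2*, a VPS10 domain receptor, had means of 16.8 and 54.2. *Lrrtm2*, a synaptic adhesion protein gene, had means of 3.94 and 45.6. *Plekha7*, which encodes a protein of epithelial adherens junctions, was the most abundant of the adhesion genes, with 8.12, 27.7 and 15.3 normalized counts in WT and 128, 120.1 and 85 in hnRNPL-deficient libraries. *Cystm1*, a small cysteine-rich membrane protein gene, had means of 9.59 and 48.3.

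Of the 54 genes, 11 were grouped under transcription and chromatin, including *Zscan30*, which is annotated as a pseudogene. *Zfp750* (chromosome 11, 121510978 to 121519333), a zinc finger factor of epidermal differentiation, had the largest ratio of all, 42.3. It had 3.48, 6.05 and 3.82 normalized counts in WT and 210.1, 203 and 152 in hnRNPL-deficient libraries, so its lowest hnRNPL-deficient value was far above anything seen in WT. *Sertad4*, a SERTA domain protein gene, had 10.4, 19.9 and 10.7 in WT and 155, 105 and 163 in hnRNPL-deficient libraries. *Meis1*, a TALE homeobox factor of hematopoietic stem cells, had 8.12, 19 and 9.18 in WT and 76.6, 77.7 and 75.4 in hnRNPL-deficient libraries. The hnRNPL-deficient values of *Meis1* were nearly identical. Of 8 other tested genes of the TALE family, 0 were called higher and *Pbx3* was called lower (from 488 to 191, log2 difference -1.34, SE 0.187, adjusted p = 0.00385 from limma). *Sox4*, an HMG box factor used by B cell progenitors, had means of 16.5 in WT and 82.9 in hnRNPL-deficient cells. *Hic1*, a transcriptional repressor known as a p53 target, had means of 15.4 and 66.6. *Kdm4d*, an H3K9 demethylase gene, had 2.32, 12.1 and 8.41 in WT and 36.1, 37.4 and 39.7 in hnRNPL-deficient libraries, and 0 of the 3 other KDM4 genes were called in either direction by limma, edgeR or DESeq2. In limma 2 of these had an unadjusted p under 0.05. *Kdm4a* rose from 3807 to 4940 (log2 difference 0.38, SE 0.101, adjusted p = 0.0475 from limma). *Kdm4c* rose from 2235 to 2786 (log2 difference 0.31, SE 0.105, adjusted p = 0.0949 from limma). Both missed a call only by the size of the change. *Kdm4b* had a log2 difference of 0.33 (adjusted p = 0.29 from limma). The KDM4 sum with *Kdm4d* ran from 6732 to 7782 in WT and from 9075 to 9582 in hnRNPL-deficient libraries.

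The other transcription and chromatin genes were the zinc finger genes *Zfp811* (means of 8.86 in WT and 72.5 in hnRNPL-deficient cells) and *Zfp30* (4.04 and 43.8), *Zscan30* (11 and 40), *Bend6* with its BEN domain (15.4 and 55.4) and *Scml2*, a Polycomb-associated protein of the germline (12.9 and 45.4). *Zscan30* is annotated as a transcribed processed pseudogene, and 53 of the 54 as protein coding. Reads of a processed pseudogene can be shared with its parent gene, so *Zscan30* is uncertain.

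Lipid mediator and metabolic enzymes included *Ptgs2* (chromosome 1, 150100031 to 150108227), which encodes cyclooxygenase 2, the inducible enzyme that starts prostaglandin synthesis. It had 12.8, 14.7 and 21.4 normalized counts in WT and 122, 123 and 115 in hnRNPL-deficient libraries, and the hnRNPL-deficient mice agreed closely. *Ptgr1*, which inactivates leukotriene B4 and prostaglandins, had 12.8, 21.6 and 22.9 in WT and 64.9, 82.8 and 39.7 in hnRNPL-deficient libraries. Here KO3 was the lowest, at less than 2 times the highest WT library. Of the 12 other genes of prostanoids and leukotrienes tested, 0 were called higher and 4 lower (4.08% of all tested genes were called lower), and the median log2 difference was -0.22. The prostaglandin receptor genes *Ptger1* (from 152 to 42.9, log2 difference -1.81, SE 0.224, adjusted p = 0.00243 from limma), *Ptger2* (from 16.6 to 6.02, log2 difference -1.35, SE 0.396, adjusted p = 0.0627) and *Ptgir* (from 704 to 358, log2 difference -0.98, SE 0.25, adjusted p = 0.0402) were among the 4. The call of *Ptger2* was lost without WT1, WT2, WT3, KO1 or KO3. *Ptgir* lost its call without WT2, WT3 or KO3. Of the 12, edgeR called 4 lower and DESeq2 3, and both called 0 higher.

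*Uggt2*, a sensor of misfolded glycoproteins in the endoplasmic reticulum, had 9.28, 22.5 and 27.5 normalized counts in WT and 114, 90.9 and 147 in hnRNPL-deficient libraries. *Cox6b2*, the testis form of a cytochrome c oxidase subunit, had 1.16, 2.59 and 6.12 in WT and 48.7, 63.6 and 48 in hnRNPL-deficient libraries. *Ckb*, brain-type creatine kinase, had 1.16, 12.1 and 12.2 in WT and 35.2, 30.3 and 30.2 in hnRNPL-deficient libraries, the lowest hnRNPL-deficient mean of the 54. The mitochondrial creatine kinase gene *Ckmt1*, no member because its values were too low, was at 0 in all WT libraries and had 30.7, 16.2 and 24.7 in the hnRNPL-deficient ones (adjusted p = 0.00116 from limma). The lysosomal thioesterase gene *Ppt2* had means of 16.4 in WT and 55.4 in hnRNPL-deficient cells, *Cln8*, which helps lysosomal enzymes leave the endoplasmic reticulum, had 12.7 and 51.5, and the D-lactate dehydrogenase gene *Ldhd* had 9.95 and 40.7.

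Signaling and membrane traffic genes made up another group. *Dnm3* (chromosome 1, 161982453 to 162478034), a dynamin that cuts membrane vesicles and is prominent in neurons and testis, had 4.64, 2.59 and 3.06 normalized counts in WT and 86.5, 142 and 163 in hnRNPL-deficient libraries, a ratio of 38.1. The few WT reads make this ratio imprecise. Of the 2 other dynamins tested, 0 were called by limma, edgeR or DESeq2, and 0 had an unadjusted p under 0.05 in limma. *Dennd2c*, which activates Rab GTPases, had 20.9, 20.8 and 13.8 in WT and 170.4, 111 and 109.7 in hnRNPL-deficient libraries. *Adcy10*, the soluble adenylyl cyclase that responds to bicarbonate, had 3.48, 9.51 and 10.7 in WT and 60.4, 65.6 and 125 in hnRNPL-deficient libraries. Of the 4 other adenylyl cyclases tested, *Adcy3* (from 938 to 542, log2 difference -0.79, SE 0.149, adjusted p = 0.0133 from limma) and *Adcy7* (from 2451 to 1631, log2 difference -0.60, SE 0.125, adjusted p = 0.02) were called lower and *Adcy9* (from 66.2 to 113, log2 difference 0.78, SE 0.239, adjusted p = 0.0718) higher. *Adcy9* was not called whichever library was left out and with quantile normalization. The call of *Adcy7* was lost without KO3 and with equal library totals or quantile normalization. Of the 4, edgeR and DESeq2 each called 0 higher and 2 lower.

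Phospholipase C was represented by *Plcb4*, with 6.96, 11.2 and 13.8 normalized counts in WT and 35.2, 35.3 and 50.7 in hnRNPL-deficient libraries, and by the catalytically inactive relative *Plcl1*, with 19.7, 19 and 17.6 in WT and 67.6, 61.6 and 50.7 in hnRNPL-deficient libraries. Of the 7 others tested 0 were called higher, and *Plcb2* was called lower (from 1268 to 825, log2 difference -0.62, SE 0.149, adjusted p = 0.0329 from limma). *Plcb2* lost its call without WT2, WT3 or KO1 and with equal library totals. *Dusp8*, a phosphatase of the stress kinases JNK and p38, had 8.12, 3.46 and 2.29 in WT and 32.5, 31.3 and 32.9 in hnRNPL-deficient libraries. Of its 8 tested relatives 2 rose and 0 fell, namely the ERK phosphatase gene *Dusp6* (from 466 to 1178, log2 difference 1.34, SE 0.135, adjusted p = 0.00105 from limma) and *Dusp5* (from 606 to 1107, log2 difference 0.86, SE 0.134, adjusted p = 0.00613). *Cpne5*, of the calcium-binding copines, had 8.12, 6.05 and 9.18 in WT and 31.6, 33.3 and 32.9 in hnRNPL-deficient libraries. Among the 5 other copines tested, *Cpne2* was called higher (172 to 335, log2 difference 0.96, SE 0.204, adjusted p = 0.021) and *Cpne9* lower (23.7 to 8.14, log2 difference -1.40, SE 0.365, adjusted p = 0.0423). *Cpne9* was not called without WT2, WT3 or KO2. Of the 5, edgeR and DESeq2 each called 1 higher and 0 lower.

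This group held 5 more genes. *Ddit4l*, an inhibitor of mTORC1, had means of 3.5 in WT and 42 in hnRNPL-deficient cells. *Dmpk*, the kinase mutated in myotonic dystrophy, had means of 8.71 and 50.6. *Trim2*, a ubiquitin ligase gene, had 10.4, 9.51 and 16.1 normalized counts in WT and 48.7, 33.3 and 31.5 in hnRNPL-deficient libraries. *Agap1*, a GTPase-activating protein for Arf, had means of 6.37 and 37.6, and *Clhc1*, with a clathrin linker domain, had means of 9.89 and 81.6.

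Several genes are best known from sperm, muscle or red blood cells. *Stpg2*, named for its sperm-tail repeats, had 8.12, 12.1 and 11.5 normalized counts in WT and 59.5, 80.8 and 164 in hnRNPL-deficient libraries, the widest spread in the hnRNPL-deficient group. *Iqch*, an IQ motif protein gene active in testis, had 0, 4.32 and 5.35 in WT and 66.7, 63.6 and 63 in hnRNPL-deficient libraries, and its hnRNPL-deficient values were tightly grouped. *Ttn*, titin of striated muscle, had means of 14.9 in WT and 54.2 in hnRNPL-deficient cells. *Hbb-bt*, a beta globin gene, had 15.1, 14.7 and 6.88 in WT and 36.1, 56.5 and 39.7 in hnRNPL-deficient libraries. Its near-identical neighbour *Hbb-bs* can share reads with it, so the value is uncertain. The other 4 genes were *Uaca* (means of 7.92 in WT and 43.6 in hnRNPL-deficient cells), *Ccdc122* (10.3 and 60.3), *Fam229b* (17.5 and 67.9) and *AI182371*, given above.

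Since many of the 54 are known from other tissues, the defining markers of those tissues were examined. Of 25 testis and germ cell markers, 9 were at 0 in every library, 3 were tested and 0 of them were called by limma, edgeR or DESeq2, with 0 at an unadjusted p under 0.05 in limma. Their sum ran from 224 to 254 normalized counts in WT and from 169 to 273 in hnRNPL-deficient libraries. Most of this sum came from the 3 tested markers. Among markers too low to be tested, *Dazl* had 4.64, 2.59 and 2.29 in WT and 9.92, 14.1 and 12.3 after loss of hnRNPL. *Tex11* was at 0 in WT and in KO1, and had 20.2 in KO2 and 39.7 in KO3. Other untested markers were lower after the loss, such as *Spo11* (mean 3.18 in WT, then 1.13). The sum of 24 neuronal and synaptic markers ran from 408 to 471 in WT and from 500.3 to 704 in hnRNPL-deficient libraries. At 0 throughout were 8 of them, including *Rbfox3*, *Syt1* and *Gap43*. Of the 8 tested, 4 were called higher and 0 lower, against 7.28% and 4.08% of all tested genes. Among the 4 were *Grin1* (from 4.1 to 19.3, log2 difference 2.10, SE 0.456, adjusted p = 0.023 from limma) and *Map2* (from 43.3 to 82.4, log2 difference 0.88, SE 0.282, adjusted p = 0.0815). The call of *Map2* was lost without WT1, WT2, WT3, KO1 or KO2 and with quantile normalization. Of the 8, edgeR called 2 higher and DESeq2 1, and both called 0 lower. Of 22 epithelial markers, 6 were at 0 in every library, including the keratin genes *Krt5*, *Krt18* and *Krt19*, and their sum ran from 1713 to 1759 in WT and from 1816 to 2032 in hnRNPL-deficient libraries. *Sfn* rose (192 to 488, log2 difference 1.30, SE 0.22, adjusted p = 0.00862 from limma) and *Klf4* fell (59 to 25.3, log2 difference -1.19, SE 0.288, adjusted p = 0.0336). *Klf4* lost its call without WT2 or WT3. The markers at 0 and single genes outside the naming rule were picked out after their values were seen.

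Markers of other blood lineages were examined in the same way. Of the 13 erythroid markers other than *Hbb-bt*, 2 were tested and 0 were called by limma, edgeR or DESeq2, with 1 at an unadjusted p under 0.05 in limma. *Slc4a1* and *Rhag* were at 0 in every library, while the erythroid sum including *Hbb-bt* ran from 118 to 149.7 in WT and from 144 to 158 in hnRNPL-deficient libraries. Of 13 T cell markers 3 were tested, 0 were higher and *Cd8b1* was lower (28.9 to 8.38, log2 difference -1.84, SE 0.471, adjusted p = 0.0405 from limma). *Cd8b1* was not called without WT3, KO1 or KO3. *Trbc1* was at 0 throughout. The T cell sum ran from 211 to 253 in WT and from 169.96 to 417 in hnRNPL-deficient libraries. The sum of 12 myeloid markers was higher in every hnRNPL-deficient library (1342 to 1489) than in every WT library (302 to 375). Most of it was *Adgre1*, which encodes F4/80, with 236, 282 and 315 in WT and 1217, 1337 and 1369 in hnRNPL-deficient libraries (log2 difference 2.24, SE 0.148, adjusted p = 0.000139 from limma). *S100a8*, *S100a9* and *Elane* were at 0 in all libraries, and *Lyz2* and *Cd14* were at 0 in all WT libraries and reached at most 2.02 and 1.01 in an hnRNPL-deficient one. *Ly6c2* was called higher (47.5 to 93.8, log2 difference 0.97, SE 0.269, adjusted p = 0.0526). The call of *Ly6c2* was lost without WT1, WT3, KO1 or KO3. Of 12 natural killer, mast cell and basophil markers, *Prf1* alone was tested and called higher (30 to 57, log2 difference 0.89, SE 0.292, adjusted p = 0.0884), and 4 were at 0 throughout, *Ncr1*, *Ms4a2*, *Fcer1a* and *Gata2*. *Prf1* lost its call without WT1, WT2, WT3, KO1 or KO3 and with quantile normalization. The sum ran from 32.1 to 37.1 in WT and from 50.5 to 111 in hnRNPL-deficient libraries, and it was highest in KO1. In KO1 *Gzmb* was at 17.1 and *Cpa3* at 7.21, and both were at 0 in every other library. *Gzma* was at 6.31 in KO1 and at most 0.765 elsewhere, and *Kit* was at 10.8 in KO1 and at most 4.32 elsewhere. *Klrb1c* was highest in KO2 (3.03) and *Nkg7* in KO3 (2.74). Of 10 plasma cell markers 9 were tested. *Cd38* was called higher (1804 to 3305, log2 difference 0.91, SE 0.265, adjusted p = 0.0611), and *Jchain* (84.1 to 14.7, log2 difference -2.31, SE 0.633, adjusted p = 0.0509) and *Fkbp11* (60.8 to 18.2, log2 difference -1.73, SE 0.327, adjusted p = 0.0134) were called lower. *Cd38* was not called without WT2, WT3, KO1 or KO3. The call of *Jchain* was lost without WT1, WT2, KO2 or KO3. Of the 9 tested plasma cell markers, edgeR called 2 higher and 1 lower, and DESeq2 called 1 higher and 2 lower. In sorted populations measured in bulk, a change in the number of cells of a type and a change in RNA per cell cannot be told apart, and the part of other cell types in the levels of the 54 genes was not tested beyond these sums.

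Genes of the silencing machinery, and then p53 target genes, were counted next. Of 32 tested Polycomb subunits and H3K27 demethylases, *Ezh1* was called higher (1798 to 2699, log2 difference 0.59, SE 0.0956, adjusted p = 0.00749 from limma) and *Kdm2b* lower (8504 to 5158, log2 difference -0.72, SE 0.0954, adjusted p = 0.00312), and the median log2 difference was 0.02. *Ezh1* lost its call without WT1, WT2 or KO3 and with a pseudocount of 5. Of 24 genes of DNA and H3K9 methylation, *Tet1* was called higher (41.6 to 98.1, log2 difference 1.30, SE 0.414, adjusted p = 0.0814), *Dnmt3b* lower (492 to 309.6, log2 difference -0.65, SE 0.164, adjusted p = 0.0376) and *Uhrf1*, the partner of maintenance methylation, lower (28938 to 18869, log2 difference -0.62, SE 0.18, adjusted p = 0.06). *Dnmt3b* was not called without WT2. The call of *Tet1* was lost without WT2, WT3, KO1 or KO2 and with quantile normalization. *Uhrf1* lost its call without WT1, WT2, KO2 or KO3 and with equal library totals or quantile normalization. Of the 24, edgeR called 0 higher and 1 lower, and DESeq2 called 1 higher and 2 lower. The list of p53 target genes held no gene of the 54. Of its 27 tested genes, 18 were called higher and 0 lower, against 7.28% and 4.08% of all tested genes. The median log2 difference of the 27 was 0.80. Their sum ran from 40905 to 46917 in WT and from 92175 to 111121 in hnRNPL-deficient libraries. *Phlda3* (62.4 to 1326, log2 difference 4.42, SE 0.221, adjusted p = 3.18e-05), *Plk2* (35.8 to 589.6, log2 difference 4.03, SE 0.242, adjusted p = 8.05e-05) and *Psrc1* (110.3 to 1455, log2 difference 3.71, SE 0.158, adjusted p = 2.11e-05) had the largest changes. Their relation to the levels of the 54 was not tested.

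For 28 of the 54 genes a family of close relatives was measured, in part from families added after the values were seen. Levels between genes are compared here per kb of exon. In WT the gene among the 54 made up a median of 0.188% of the family's summed level, and in hnRNPL-deficient cells a median of 1.31%. For 23 of the 28 genes the relative with the highest WT level stayed above the gene also in hnRNPL-deficient cells. *Uggt2* reached 9.15 normalized counts per kb against 915 for *Uggt1*, *Cox6b2* reached 48.2 against 12340.4 for *Cox6b1*, and *Dnm3* reached 5.34 against 1565 for *Dnm1l*. Counted for each of the 28 genes, 21 of the relatives with the highest WT level were tested and not called, 4 were not tested, 1 was called higher and 2 were called lower. For *Ckb* this relative was *Ckm*, which was not tested, so the rise of *Ckmt1* is not in this count. *Plcg2* counts there for both *Plcl1* and *Plcb4*, which share a family. The 1 called higher was *Ddit4* (523 to 1528, log2 difference 1.55, SE 0.158, adjusted p = 0.00105 from limma), the better known relative of *Ddit4l*. The 2 called lower were *Sox12* (1522 to 807, log2 difference -0.93, SE 0.162, adjusted p = 0.00964) and *Adcy7*.

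In 5 families the low gene was itself the main member. *Sulf1* was at 0 in every library, so all sulfatase reads of this pair were *Sulf2*. *Robo3* made up 99.4% of the Roundabout receptor level per kb in hnRNPL-deficient cells, *Lrrtm2* was the only one of its family above 0 there, *Hbb-bt* made up 72.1% of the level of the globin pair and *Ckb* 52.0% of that of creatine kinases. A few others took a visible share of a family that was itself low, namely *Hic1* (6.71% in WT and 21.7% in hnRNPL-deficient cells, beside *Hic2*), *Dennd2c* (3.09% and 20.8%) and *P2rx3* (5.39% and 18.8%).

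**Figure D3:**
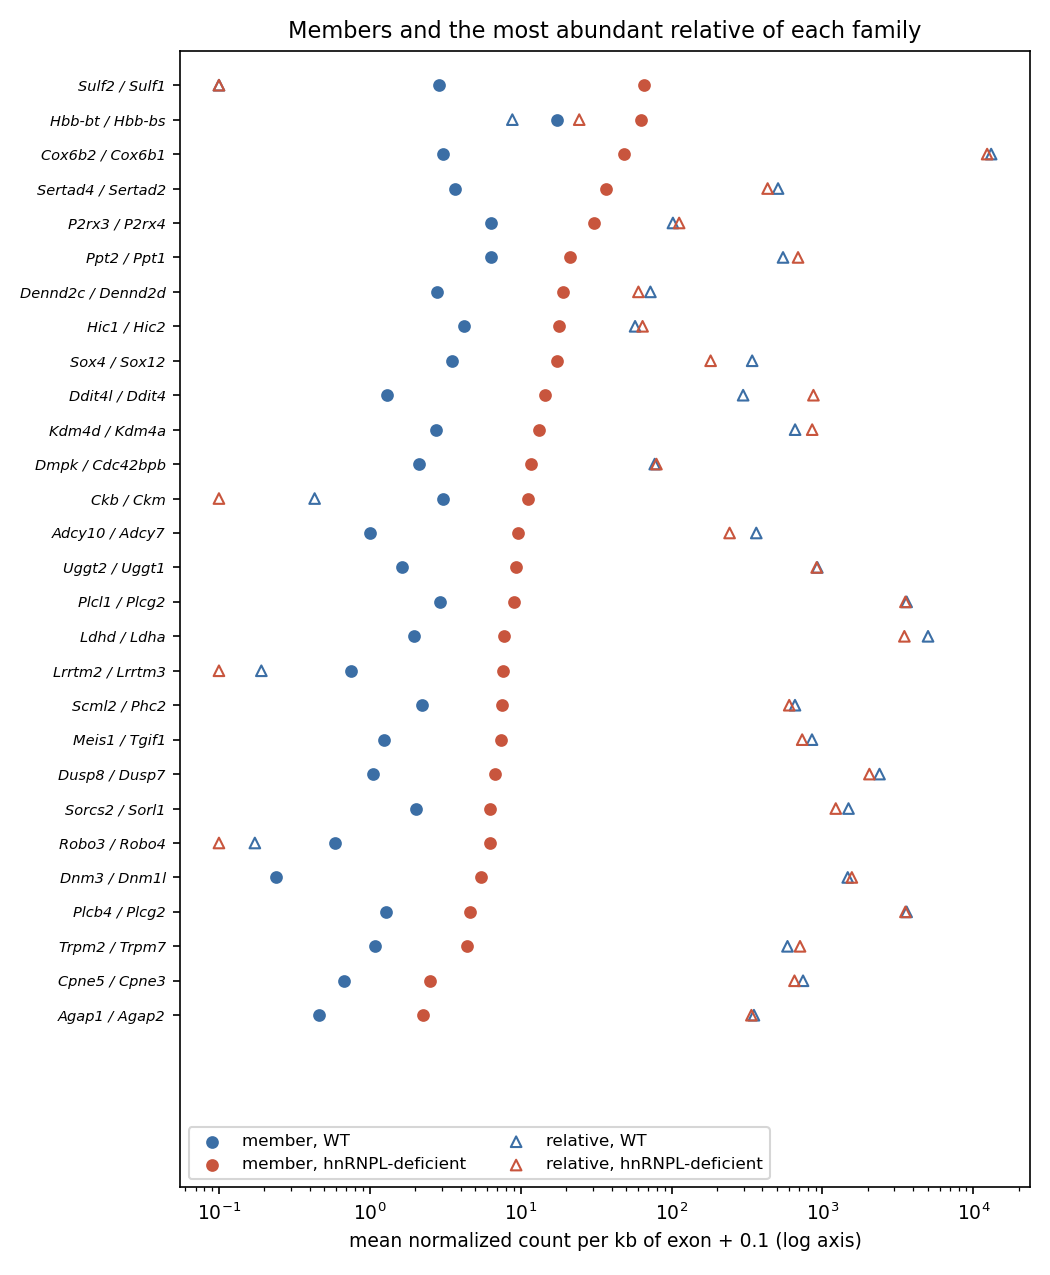
Mean normalized count per kb of exon + 0.1, on a log axis, for 28 of the 54 genes (filled circles) and the relative of each family with the highest WT level (open triangles), in WT (blue) and hnRNPL-deficient cells (red). Each row names the gene and its relative. In 23 of 28 rows the red triangle lies to the right of the red circle, and the 2 triangles of a row mostly lie close together.

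The 54 genes lay on 17 chromosomes, with 8 on chromosome 1 and 6 each on chromosomes 7 and 11. Chromosome 18 held 5 (*Cabyr*, *Cystm1*, *Lrrtm2*, *Pkd2l2* and *Zscan30*), which is 1.11% of its 449 tested genes. Within 20 Mb of *Hnrnpl* lay *Zfp30* and *Dmpk*, 0.962 and 9.71 Mb from it. This is 3.70% of the 54, and 2.77% of tested genes lie in that stretch. *Cpne5* lies 54.8 kb from *Cdkn1a*, a p53 target gene that rose (471 to 4769.5, log2 difference 3.34, SE 0.136, adjusted p = 2.11e-05 from limma). *Cdkn1a* was picked out by name, and a link between the genes was not tested. The tested genes next to *Cpne5*, *Rpl35a-ps3* (18.3 kb away) and *Ppil1* (12.6 kb away), were not called.

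The tested genes next to the 54 were examined, since position was not used in choosing them. Of 122 such neighbours, 12 were called higher (9.84%) and 4 lower (3.28%), near the 7.28% and 4.08% of all tested genes, and their median log2 difference was -0.01. The others, 106 of 122, were not called. Of 14 overlapping genes, of which 12 are on the opposite strand, 3 were called higher and 0 lower. *Lacc1*, opposite *Ccdc122*, rose from 192 to 491 (log2 difference 1.38, SE 0.229, adjusted p = 0.00791 from limma). The unnamed gene *Gm16759*, opposite *Iqch*, had 3.48, 4.32 and 3.06 in WT and 30.7, 29.3 and 46.6 in hnRNPL-deficient libraries (log2 difference 2.96, SE 0.383, adjusted p = 0.00294). *Fam13b*, opposite *Pkd2l2*, rose from 1324 to 2049.5 (log2 difference 0.64, SE 0.173, adjusted p = 0.0491). *Fam13b* was not called without WT1, WT3 or KO3. The reads were counted by strand according to the study's methods.

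On the same strand and within 5 kb upstream lay 5 tested genes, of which 1 was called higher and 0 lower. This was *Dmwd*, 1.07 kb upstream of *Dmpk*, with 23.2, 43.2 and 58.1 normalized counts in WT and 267, 272 and 225 in hnRNPL-deficient libraries (log2 difference 2.67, SE 0.332, adjusted p = 0.00246 from limma). *Dmwd* and *Dmpk* were thus higher together in all 3 hnRNPL-deficient libraries, with *Dmwd* at the higher count. *Tnip3*, left out of the set by name, lies 37.5 kb upstream of *Ndnf* on the same strand and had 13.9, 25.1 and 17.6 in WT and 536, 509 and 607 in hnRNPL-deficient libraries. *Afap1*, 13.3 kb downstream of *Sorcs2*, rose from 205 to 420 (log2 difference 1.02, SE 0.167, adjusted p = 0.00749 from limma). In the other direction, *Slc43a3* near *P2rx3* fell from 4595 to 2757 (log2 difference -0.72, SE 0.155, adjusted p = 0.0221), and *Mnd1* near *Trim2* fell from 81 to 39.1 (log2 difference -1.05, SE 0.267, adjusted p = 0.039). The call of *Slc43a3* was lost without WT1. *Mnd1* lost its call without WT2 or WT3. The neighbours with these values were picked out after they were seen.

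**Figure D4:**
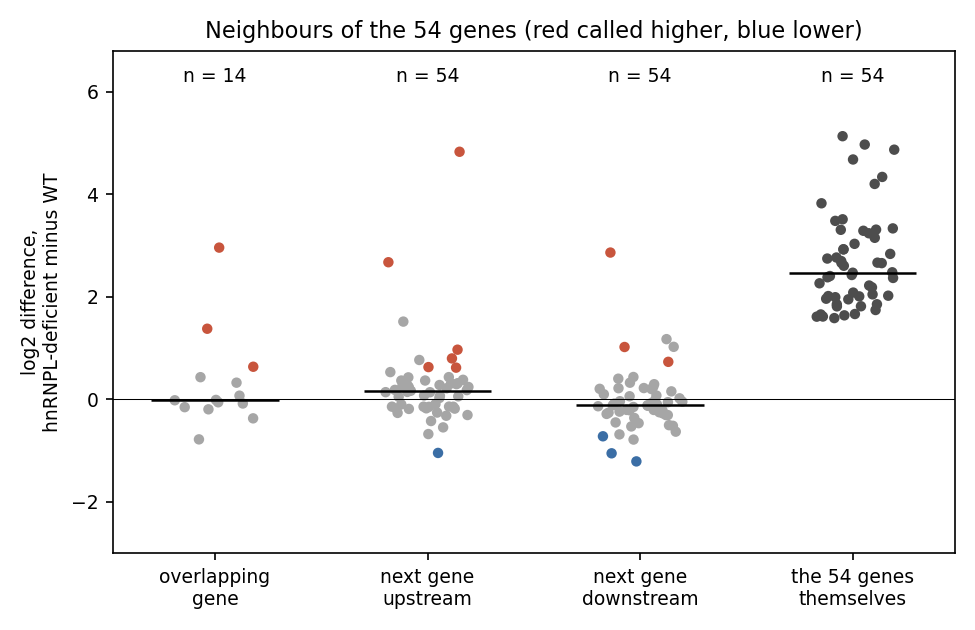
Log2 difference (hnRNPL-deficient minus WT, of mean log2(normalized count + 1)) of 14 overlapping genes, 54 next genes upstream and 54 downstream, and of the 54 genes themselves (dark grey). Each point is 1 gene, black lines are medians, red marks genes called higher and blue genes called lower. Neighbours centre near 0, with *Tnip3* as the highest point upstream and *Gm16759* as the highest overlapping one, and the 54 genes lie between 1.59 and 5.13 because they were chosen to.

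Promoter sequences in the RefSeq table (GRCm38.p6, from 250 bases before to 50 bases after a start) were found for 41 of the 54 genes, in 58 windows. Several windows of 1 gene overlap and are not independent. CpG-rich windows, with an observed to expected CpG ratio of at least 0.6 and at least 50% G and C, made up 51.7% of the windows of the 54, 33.5% of all 32851 windows, 65.6% of the windows of other tested genes and 41.8% of those of other tested genes with a WT mean under 20. The promoters of the 54 were thus mixed. At least 1 CpG-rich window was found for 22 of the 41 genes, and none for the other 19.

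To show the range, the 100 bases before the start are printed for genes described above, with each CG in capitals. *Csf2* and *Dnm3* have CpG-poor windows (ratios 0.126 and 0.514) and *Ptgs2* lies at the edge (0.617), while *Stpg2* (0.941), *Uggt2* (0.780) and *Iqch* (0.972) have CpG-rich ones, and all 6 were low in WT and higher in hnRNPL-deficient cells.
Csf2, chr11:54249900-54249999, minus strand: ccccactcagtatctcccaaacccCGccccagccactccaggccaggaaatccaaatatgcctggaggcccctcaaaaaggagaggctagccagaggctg
Dnm3, chr1:162478035-162478134, minus strand: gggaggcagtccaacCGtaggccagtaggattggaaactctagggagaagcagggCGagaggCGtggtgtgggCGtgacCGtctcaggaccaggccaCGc
Ptgs2, chr1:150099931-150100030, plus strand: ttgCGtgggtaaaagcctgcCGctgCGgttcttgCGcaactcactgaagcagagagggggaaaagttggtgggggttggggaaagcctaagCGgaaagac
Stpg2, chr3:139205793-139205892, plus strand: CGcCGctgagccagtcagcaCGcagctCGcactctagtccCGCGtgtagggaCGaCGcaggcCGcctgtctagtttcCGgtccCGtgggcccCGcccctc
Uggt2, chr14:119099435-119099534, minus strand: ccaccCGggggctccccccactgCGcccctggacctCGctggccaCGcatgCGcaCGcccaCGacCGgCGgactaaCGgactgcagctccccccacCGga
Iqch, chr9:63602494-63602593, minus strand: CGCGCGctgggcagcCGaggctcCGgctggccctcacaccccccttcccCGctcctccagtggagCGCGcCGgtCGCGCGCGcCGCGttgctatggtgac
The number of CG pairs in these stretches goes from 1 in *Csf2* to 15 in *Iqch*.

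Short motifs were searched on both strands of the whole window. TATAAA, the core of the TATA box, was found in 13.8% of the windows of the 54, in 13.6% of all windows and in 7.14% of those of other tested genes. ACACACA, the DNA form of a CA repeat, was found in 15.5%, 8.01% and 5.59%. The motif of AP-1, TGANTCA, was found in 3.45%, 7.81% and 4.86%, and the p53 half-site in 5.17%, 8.36% and 6.64%. With 58 windows, these shares rest on 8, 9, 2 and 3 windows, and no difference was tested. TATAAA stands 28 bases before the start, the usual place of a TATA box, in *Hbb-bt* and *Ckb*, and it is in capitals in the 100 bases before their starts.
Hbb-bt, chr7:103813924-103814023, minus strand: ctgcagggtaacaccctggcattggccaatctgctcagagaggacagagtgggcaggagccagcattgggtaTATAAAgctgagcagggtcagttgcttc
Ckb, chr12:111672339-111672438, minus strand: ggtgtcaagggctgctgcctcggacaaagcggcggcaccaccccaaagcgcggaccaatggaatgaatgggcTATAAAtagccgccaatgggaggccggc
Runs of ACACACA or its complement are in capitals in the 160 bases before the start of *Ptgr1* and the 100 bases before that of *Kdm4d*. These bases precede the annotated start and are shown as DNA.
Ptgr1, chr4:58987079-58987238, minus strand: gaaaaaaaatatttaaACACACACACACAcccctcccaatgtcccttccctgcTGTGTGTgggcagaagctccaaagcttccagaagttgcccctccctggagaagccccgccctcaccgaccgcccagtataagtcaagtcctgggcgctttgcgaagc
Kdm4d, chr9:14500483-14500582, minus strand: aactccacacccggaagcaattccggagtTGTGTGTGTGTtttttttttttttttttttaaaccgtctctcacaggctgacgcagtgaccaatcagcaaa
Matches to the p53 half-site are in capitals before the starts of *Csf2* (160 bases shown), *Ddit4l* (120 bases) and *Plcl1* (100 bases). A match is a description of the letters and not a site shown to be bound.
Csf2, chr11:54249900-54250059, minus strand: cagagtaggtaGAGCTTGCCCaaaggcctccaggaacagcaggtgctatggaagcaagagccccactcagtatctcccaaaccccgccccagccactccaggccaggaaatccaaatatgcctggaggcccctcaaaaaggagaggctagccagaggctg
Ddit4l, chr3:137623552-137623671, plus strand: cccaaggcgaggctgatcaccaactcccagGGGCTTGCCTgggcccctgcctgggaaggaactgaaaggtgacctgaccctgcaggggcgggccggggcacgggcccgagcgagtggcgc
Plcl1, chr1:55405846-55405945, plus strand: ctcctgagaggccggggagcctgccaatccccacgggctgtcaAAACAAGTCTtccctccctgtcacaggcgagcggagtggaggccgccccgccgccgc

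**Figure D5:**
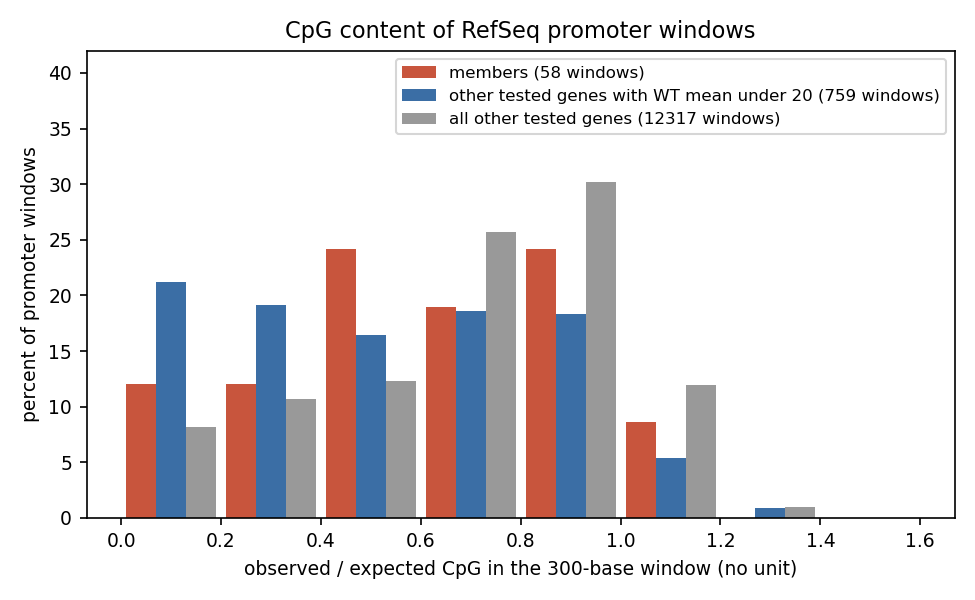
Percent of RefSeq promoter windows (vertical) by their observed to expected CpG ratio in bins of 0.2 (horizontal), for the 58 windows of the 54 genes (red), 759 windows of other tested genes with a WT mean under 20 (blue) and 12317 windows of all other tested genes (grey). The red bars spread over the whole range, with a median of 0.607, between the medians of the blue (0.524) and grey (0.756) groups.

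With the groups exchanged in the same thresholds, 7 named genes were low in hnRNPL-deficient and at least 30 in every WT library, namely *Axl*, *Glt1d1*, *Col11a2*, *Syne4*, *Fkbp11*, *Ak7* and *C78859*. The highest of these was *Axl*, a receptor tyrosine kinase gene, with 122, 127 and 115 in WT and 21.6, 20.2 and 12.3 in hnRNPL-deficient libraries. Including unnamed genes the numbers were 100 and 11. The genes left out by name included *Tnfsf8*, *Tnfsf4*, *Stamos*, 24 Gm genes and 17 Rik genes. Of the 1900 tested genes with a WT mean under 20, the 54 were 2.84%.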

How the data were processed

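RNA-seq of GFP+ B cells from 3 WT and 3 hnRNPL-deficient mice was used, grouped by the submitters' labels. The authors aligned reads to mm10 with STAR, counted them per gene by strand with featureCounts against a GENCODE annotation, and deposited normalized counts, a signal made by dividing counts by DESeq2 size factors. The deposited table also holds the authors' own comparison (log2 fold changes with standard errors, a test statistic, p-values, adjusted p-values and a class), none of which was used.

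Genes were selected by the thresholds given in the report. The members and gene lists were chosen with earlier results of these data known, and families were added after values were seen. Every member is named; libraries are listed singly for the 12 members with the highest hnRNPL-deficient mean, the 8 with the largest ratio, members in a gene list and genes beside a threshold, and at most 3 other genes per list are named, by size of change.

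Log2(normalized count + 1) of the 17640 genes averaging 10 or more was tested in limma 3.58.1 (R 4.3.3), with its variance trend. A call needed a fold of 1.5 or more and, after Benjamini-Hochberg adjustment, a p below 0.1. Log2 differences are on that scale, which understates changes of low genes. On simulated data at this size the test recovered 63 of 63 genes changed 4-fold up, 38 of 40 changed 2-fold up, 46 of 47 changed to 0.25 and 40 of 50 changed to 0.5, with 5 false calls. The simulation gave every gene the same small spread between mice. It therefore does not show how often genes that vary more are recovered or falsely called. All values (100%) in each library came out as whole reads within a tolerance of 0.1. For KO2, 1 read is worth close to 1, so its reads entered no count test. edgeR 4.0.16 on the other 5 libraries called 1144 genes higher and 578 lower, and DESeq2 1.42.0 called 1180 and 721. P-values measure the spread between 3 mice per group, and an exact permutation test of 1 gene cannot go below 0.1. Positions come from GENCODE on GRCm38, and promoters from RefSeq on GRCm38.p6. Alternatives were other pseudocounts, filters, normalizations, variance models, thresholds and promoter windows, the replicate number as a block, count tests, and each library left out.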

Additional observations from a re-analysis of the deposited data

How the results depend on the processing

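The genes called higher numbered between 830 (without WT3) and 1111 when 1 library was left out, against 1284 with all, and those called lower between 478 (without WT3) and 696, against 719. Other settings kept both numbers within 1.5 times. Of the listed genes that are not among the 54, 43 were called higher (29 to 37 with a library left out) and 16 lower (9 to 16), the latter 9 without WT2 and 10 without KO3 or in genes with a mean of at least 50. The set of 54 is set by its thresholds. It became 6 genes with a WT mean under 10, a lowest hnRNPL-deficient value of at least 60 and a ratio of at least 6, and 252 with limits of 40, 15 and 2. With quantile normalization 42 of the 54 met the rule, and without 1 library between 46 and 53 of them did. The median log2 difference of 2.47 was 2.02 with a pseudocount of 5, 2.33 with quantile normalization and between 2.33 and 2.71 without 1 library. No log2 difference of the 54 changed sign, but the choice of the genes by these same values left hardly any room for that. A move by more than 1 SD was seen for 16 genes, all with a pseudocount of 5. Of 81 other genes followed, 38 lost their call in at least 1 of 10 settings and 0 changed sign. The cause was not tested. With the replicate number as a block, 1755 genes were called higher and 1018 lower. The same-numbered libraries deviated together only in part (correlations of 0.429, 0.320 and 0.0663 over genes), and WT3 correlated better with KO2 (0.305) than with KO3, so the replicate block was not used. CpG-rich windows were 44.8% in place of 51.7% when the last 50 bases were left out.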
